A study of Mus musculus with 6 samples.

Results

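These results describe 8 mouse genes, Lipg, Pou3f1, Rhov, Pcp4l1, Cdo1, Htr2b, Syngr1 and Rapsn, in macrophages sorted from the pancreas after caerulein injury. The genes were chosen by name, as genes that earlier results of the same libraries had shown to be high early or throughout the course, and they are 8 of 31617 genes in the deposited table. Because these same values chose them, their differences from mock are given as a description with no test. The choice set a brief course, on day 1, against a course kept up over days 3, 4, 5 and 7. Rapsn was not high early as described. Its day 1 log2 ratio to mock was -0.49 as deposited, -0.65 with libraries rescaled to equal totals and -0.60 with libraries centred on the median expressed gene. Of the scalings, quantile normalisation alone put it above mock, at 0.63, so its direction on day 1 depends on that scaling. Under none of them was it 2-fold above mock.

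The libraries came from wild type Balb/c mice. Pancreatic leukocytes were enriched with magnetic beads and sorted as CD45+CD11b+F4/80+ cells, a gate meant to hold macrophages. The 5 injured groups received 10 hourly intraperitoneal injections of caerulein, a peptide that drives acinar secretion like cholecystokinin does, at a dose that the series' design text gives as 100 mg/kg, and were taken on days 1, 3, 4, 5 and 7. The mock group received saline in that text, while its sample label gives no treatment; the labels call the model RAP, and day 4 appears in the sample labels but not in the design text. Each group is 1 library made of pooled cells of more than 3 mice. No difference therefore has a replicate check, and all 5 ratios share the 1 mock library. In such bulk samples, more cells with a transcript and more transcript per cell cannot be told apart.

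Macrophages of an injured tissue are a mixture of resident cells and cells newly derived from blood monocytes, and their transcripts change as they take up debris, respond to interferon and turn to repair. The 8 genes belong to no common pathway. Several are better known outside macrophages: Lipg encodes endothelial lipase, a secreted phospholipase of high-density lipoprotein, Pou3f1 a POU transcription factor of Schwann cells, Syngr1 the synaptic vesicle protein synaptogyrin, and Rapsn rapsyn, which clusters acetylcholine receptors at the nerve-muscle junction. Htr2b encodes a Gq-coupled serotonin receptor, Cdo1 the cysteine dioxygenase that opens the route from cysteine to taurine, Rhov an atypical small GTPase, and Pcp4l1 a small protein related to Pcp4.

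The libraries held between 14853084 and 25726455 reads. Values are normalised read counts, that is, reads divided by 1 factor per library set by the authors. Log2 ratios to mock carry a pseudocount of 17.8 normalised units, which makes the ratios of low genes smaller, and folds without pseudocount carry a 95% Clopper-Pearson interval that covers counting error only. A gene counted as expressed when its mean level was among the top 10000, which held for all 8 genes. The lowest mean that passed was 74.1. Lipg and Pou3f1 passed through their day 1 values alone, with at most 10.98 and 51.0 in any other library. The median expressed gene itself stood at 0.15 on day 1, 0.12 on day 5 and -0.11 on day 7 against mock on the log2 scale, and between -0.01 and 0.08 on days 4 and 3. All 10 macrophage markers, Ptprc, Itgam and Adgre1 of the sort among them, had reads in every library, and their summed level was lowest on day 7 (422100) and highest on day 4, led by Lyz2.

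On day 1, 7 of the 8 genes were at least 2-fold above mock, with a median log2 ratio of 4.01, where 6.68% of all expressed genes were. On days 3, 4, 5 and 7 the number was 5 (background 3.73%), 5 (3.31%), 4 (3.68%) and 1 (1.96%). The medians on those days were 2.06, 2.61, 1.08 and 0.31. On days 1 and 3, 0 of the 8 were at least 2-fold below mock, where 9.58% and 5.71% of expressed genes were, and Rhov was the single gene below it on days 4, 5 and 7, when 8.11%, 6.4% and 6.57% of expressed genes were. Nothing is read from these shares, since the genes were picked for being high. The shares also depend on how the libraries are scaled. With libraries rescaled to equal totals, 3.82% of expressed genes were above mock on day 1 and 5.62% on day 7. Of all genes past 2-fold, the part that was higher went from 41.1% to 22.9% on day 1, from 29.0% to 17.9% on day 4, from 36.5% to 24.3% on day 5 and from 23.0% to 65.5% on day 7. It was 34.8% on day 7 with libraries centred on the median expressed gene, and 39.3% on day 4 and 46.2% on day 7 after quantile normalisation.

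**Figure D1:**
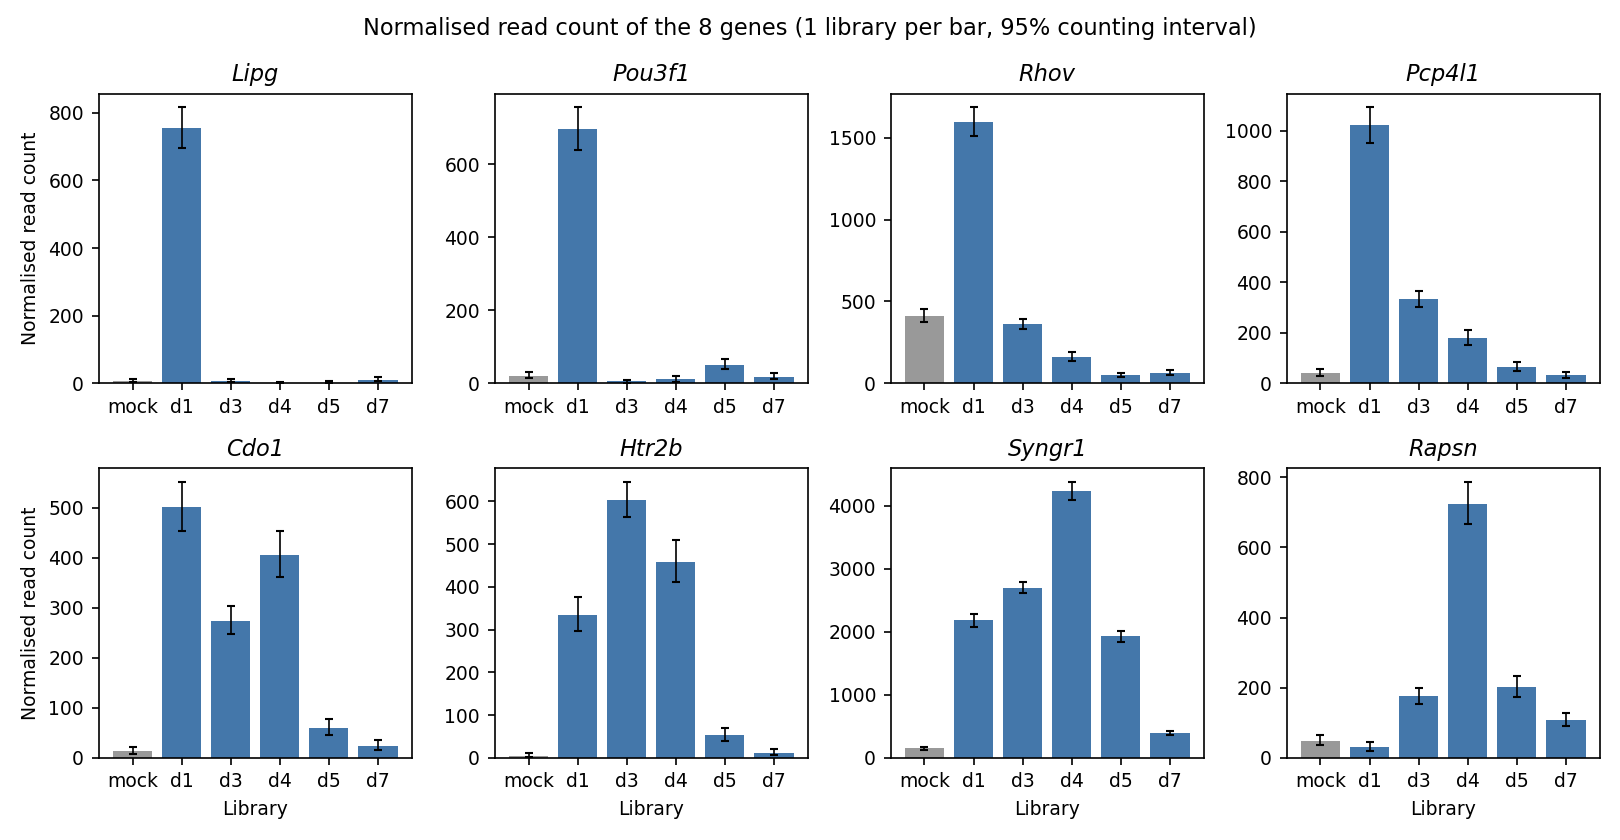
Normalised read count (y axis, from 0, own scale per panel) of each gene in mock (grey) and on days 1, 3, 4, 5 and 7 after caerulein (blue), 1 library per bar, with 95% Poisson intervals of counting error. Lipg and Pou3f1 stand high in the day 1 bar alone (754 and 697), Cdo1, Htr2b and Syngr1 stand high on days 1, 3 and 4, and Rapsn peaks on day 4 at 725.

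The promoters of 4 of the genes, those matched in the RefSeq promoter table (GRCm38.p6), are shown because 2 of them belong to genes highest on day 1 and 2 to genes highest on day 3 or 4. Each is the stretch of 250 bases before the annotated start, written 5′ to 3′ on the gene's strand, with matches to the searched motifs in capitals. Rhov is at chr2:119271227-119271476 and Pcp4l1 at chr1:171196269-171196518, both on the minus strand, Htr2b at chr1:86111981-86112230 on the minus strand and Syngr1 at chr15:80091084-80091333 on the plus strand.
Rhov: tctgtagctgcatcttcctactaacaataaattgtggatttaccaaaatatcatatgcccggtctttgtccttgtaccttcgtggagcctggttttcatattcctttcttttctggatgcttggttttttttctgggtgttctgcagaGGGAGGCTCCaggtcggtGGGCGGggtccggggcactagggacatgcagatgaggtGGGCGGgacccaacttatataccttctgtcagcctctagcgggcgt
Pcp4l1: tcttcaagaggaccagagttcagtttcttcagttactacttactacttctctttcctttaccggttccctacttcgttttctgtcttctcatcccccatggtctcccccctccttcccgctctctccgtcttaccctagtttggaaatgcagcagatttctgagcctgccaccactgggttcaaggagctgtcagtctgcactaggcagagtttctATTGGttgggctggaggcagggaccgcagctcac
Htr2b: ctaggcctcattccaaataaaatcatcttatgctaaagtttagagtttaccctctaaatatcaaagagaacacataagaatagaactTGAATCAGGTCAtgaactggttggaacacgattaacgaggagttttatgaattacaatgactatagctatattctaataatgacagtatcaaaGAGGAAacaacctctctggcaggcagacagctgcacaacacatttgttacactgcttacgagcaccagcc
Syngr1: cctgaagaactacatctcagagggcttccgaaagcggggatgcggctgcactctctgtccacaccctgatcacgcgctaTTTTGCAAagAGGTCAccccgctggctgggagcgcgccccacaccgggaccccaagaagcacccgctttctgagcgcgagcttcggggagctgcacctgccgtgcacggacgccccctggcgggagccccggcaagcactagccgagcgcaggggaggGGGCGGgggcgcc

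The 4 sequences differed in composition. GC content was 37.6% for Htr2b, 50% for Rhov, 51.6% for Pcp4l1 and 68.4% for Syngr1, beside a median of 52.4% over 32851 promoters of the table. The Syngr1 stretch held 22 CpG dinucleotides and that of Htr2b 3, beside a median of 6. Both strands were searched for 14 motifs. The nuclear receptor motif AGGTCA matched Htr2b from 157 to 152 bases before the start and Syngr1 from 161 to 156, and it is held by 14.0% of all promoters. In Htr2b its first base is the last base of a match to the AP-1 motif TGANTCA (6.75% of promoters), and GAGGAA, the ETS purine box (23.3%), matched nearer the start. Syngr1 also held TTGCNNAA (C/EBP, 9.56%), and Syngr1 and Rhov held the GC box GGGCGG (32.7%), Rhov at 2 places. Rhov held an NF-kB motif (17.6%) and Pcp4l1 held CCAAT on the opposite strand (33.8%). Not matched in any of the 4 were TATAAA (12.4%), TGACG (17.8%), CACGTG (6.02%), the interferon response element (2.98%), TTCNNNGAA (STAT, 7.02%), ACGTG (16.6%) and the CArG core of SRF (0.0609%). ACGTG lies inside CACGTG, so these overlap. A match describes letters, not a bound site.

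Lipg (ENSMUSG00000053846, chromosome 18 in GENCODE M21) had the most confined course. Its normalised read count was 6.68 in mock, then 754, 7.04, 0, 2.08 and 10.98 on days 1, 3, 4, 5 and 7. Day 1 held 96.6% of its level summed over the 6 libraries. The other 5 libraries held 0 to 13 reads, against 613 reads on day 1. The day 1 value was 113 times that of mock (interval 54.4 to 282), a log2 ratio of 4.98, which ranked first among expressed genes. Lipg counted as expressed through that day 1 value alone, so nothing is read from the rank. On day 4, with 0 reads, it was at least 194-fold lower than on day 1 when 3 reads are taken as the floor of that library, and the lower bound of the counting interval was 158-fold.

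Endothelial markers did not all share this course. Of 7 endothelial markers, Kdr was high on day 1, at 1320.5 normalised units against 91.7 in mock, while the other 6 summed to 269.5 on day 1 and 953 in mock. Among these 6, the junction gene Cdh5 was higher on day 1 (49.2) than in mock (16.2), while Cldn5 was at 0 on day 1. The summed level of all 7 was between 242 on day 4 and 1590.0 on day 1. Of the 7, 3 counted as expressed, and the part of endothelial cells in the values of Lipg was not tested. Relatives of Lipg did not share its course: Lpl, lipoprotein lipase, was at 8613 in mock and 5261 on day 1, Lipc had at most 42.3 in any library, and Lipa, lysosomal acid lipase, was at a log2 ratio of 0.45 on day 1.

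Pou3f1 (ENSMUSG00000090125, chromosome 4) had a similar course with a smaller second high on day 5. Its values were 21.0 in mock, then 697, 4.93, 10.4, 51.0 and 17.7 on days 1, 3, 4, 5 and 7. The day 1 value was 33.2 times mock (interval 21.7 to 53.3) and the day 5 value 2.43 times mock (1.44 to 4.21). Between day 4 and day 5 its reads went from 8 to 49, a fold of 4.92 (2.31 to 12.0). On day 3 it was below mock, with 7 reads against 22 and a fold of 0.235 (0.0847 to 0.569).

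Interferon-induced genes were high in the same 2 libraries. Of 17 expressed genes of that list, 13 were at least 2-fold above mock on day 1 and 11 on day 5, while all 17 were at least 2-fold below mock on days 3 and 4, with medians of 2.40, 1.18, -2.46 and -2.54. Of all expressed genes, 6.68% and 3.68% were above on days 1 and 5, and 5.71% and 8.11% below on days 3 and 4. Ifit2, an antiviral gene, went from 2798 in mock to 19064 on day 1, 245 on day 3 and 12171 on day 5, and Iigp1, an interferon-induced GTPase gene, was at -3.39 on day 4. Whether the 2 patterns are tied was not tested. Schwann cell and neuron markers summed to between 569 and 1130 over the libraries, were lowest on day 1, and consisted mostly of Mbp (499.6 on day 1, 829 in mock). Of the Pou3f1 class, Pou3f2, Pou3f3 and Pou3f4 stayed at 7.76 or lower in every library.

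Rhov (ENSMUSG00000034226, chromosome 2) was above mock by the least of the 7 genes on day 1, and its mock library held 433 reads. Its values were 414 in mock, then 1596, 362, 162, 48.9 and 64.2 on days 1, 3, 4, 5 and 7. The day 1 value was 3.86 times mock (interval 3.46 to 4.31), rank 118 among expressed genes. By day 5 it stood at 0.118 of mock (0.0855 to 0.160). Its log2 ratio was -1.26 on day 4, but against day 7 instead of mock, a reference chosen after seeing the data, that of day 4 was 1.13.

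Pcp4l1 (ENSMUSG00000038370, chromosome 1) stepped down from day to day. Its values were 41.1 in mock, then 1021, 332, 179.8, 65.5 and 31.3 on days 1, 3, 4, 5 and 7. The day 1 value was 24.9 times mock (interval 18.3 to 34.6), and each later library stood below the one before it, by 3.07 (2.74 to 3.45), 1.85 (1.53 to 2.25), 2.75 (2.02 to 3.76) and 2.10 times (1.38 to 3.24). On day 7 it was at 0.761 of mock, with an interval of 0.477 to 1.21 that spans no change. Pcp4 itself had reads on day 3 alone, at 1.41 normalised units.

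Cdo1 (ENSMUSG00000033022, chromosome 18) was high on days 1, 3 and 4 and far lower from day 5. Its values were 13.4 in mock, then 501, 275, 406, 60.3 and 24.5 on days 1, 3, 4, 5 and 7. The folds over mock were 37.5 on day 1 (interval 22.1 to 69.1), 20.5 on day 3 (12.1 to 37.9) and 30.4 on day 4 (17.8 to 56.2). Day 1 exceeded day 4 by 1.23 times (1.06 to 1.43), the smallest gap between the highest and the second library of any of the 8 genes. From day 4 to day 5 it was 6.74 times lower (5.08 to 9.07).

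Htr2b (ENSMUSG00000026228, chromosome 1) had its highest value on day 3. Its values were 4.77 in mock, then 335, 604, 458, 53.0 and 11.8 on days 1, 3, 4, 5 and 7. Mock held 5 reads against 857 on day 3, a fold of 126 (interval 54.0 to 390) and a log2 ratio of 4.79, the highest of all expressed genes on that day. Htr2b was chosen for such values and counted as expressed through those of days 1, 3 and 4, so nothing is read from the rank. Day 3 exceeded day 4 by 1.32 times (1.16 to 1.50) and day 1 by 1.80 times (1.57 to 2.07). From day 4 to day 5 it was 8.64 times lower (6.43 to 11.8), and the day 7 fold of 2.48 over mock had an interval of 0.843 to 8.79.

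Markers of fibroblasts, ducts and islets had their highest sums in the day 3 library, where Htr2b peaked, while those of T, NK and B cells, acinar cells, dendritic cells and endothelium were below mock there. The summed level of 9 fibroblast and stellate markers was 16134 on day 3, against 3171 in mock, 631 on day 1 and 831 on day 4. The 6 duct markers summed to 2217 on day 3 and the 7 islet markers to 759.9, most of it Gcg, the highest of the 6 libraries in both lists. Htr2b was at 335, 604 and 458 on days 1, 3 and 4. The part of such cells in the values of Htr2b was not tested. Htr2b lies across from Psmd1 on the opposite strand in GENCODE M21, and use of strand in counting remains not given in the sources used here. Psmd1 had 2303, 3281, 4026 and 1222 reads in mock and on days 1, 3 and 4, where Htr2b had 5, 272, 857 and 354. Whether reads of Psmd1 add to those of Htr2b was not tested.

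Syngr1 (ENSMUSG00000022415, chromosome 15) was high in every library after caerulein. Its values were 154 in mock, then 2179, 2699, 4231, 1929 and 395 on days 1, 3, 4, 5 and 7. All 5 stood above mock, and the folds were 14.2 (interval 12.1 to 16.8), 17.6 (15.0 to 20.7), 27.5 (23.5 to 32.4), 12.5 (10.7 to 14.8) and 2.57 (2.14 to 3.09). Syngr1 was one of 7 expressed genes at least 2-fold above mock on all 5 days. It was chosen for being high, so nothing is read from that place. Day 4 exceeded day 3 by 1.57 times (1.50 to 1.64). The gene overlaps Rpl3 on the opposite strand. Rpl3 had 5654 reads in mock, then 3196, 11637, 4499, 3981 and 4488 on days 1, 3, 4, 5 and 7, not scaled for library depth. Its part in the Syngr1 values was not tested.

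Rapsn (ENSMUSG00000002104, chromosome 2) was the late gene of the set. Its values were 48.7 in mock, then 29.5, 176, 725, 202 and 108 on days 1, 3, 4, 5 and 7. On day 1 it had 24 reads against 51 in mock, a fold of 0.606 with an interval of 0.357 to 1.00 that reaches no change. The day 4 value was 14.9 times mock (11.2 to 20.2) and 24.5 times day 1 (16.3 to 38.6). On day 7 it was still 2.22 times mock (1.59 to 3.13). Day 4 exceeded the second highest library, day 5, by 3.59 times (3.04 to 4.25). The 6 skeletal muscle markers summed to at most 88.7 in any library, and to 41.4 on day 4, where Rapsn peaked.

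**Figure D2:**
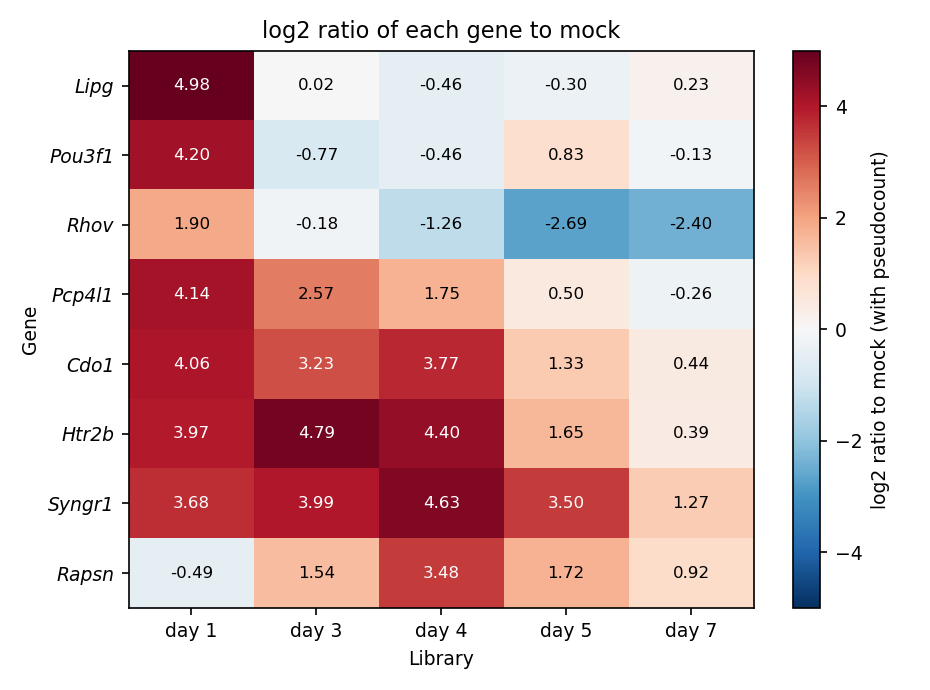
Log2 ratio to mock with pseudocount for each gene (rows) on each day (columns), with red above and blue below mock. Day 1 is red in every row but that of Rapsn (-0.49), and day 7 lies within 0.44 of 0 in 5 rows, with Syngr1 at 1.27, Rapsn at 0.92 and Rhov at -2.40.

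The difference between the day 1 ratio and the mean ratio of days 3, 4, 5 and 7 put the genes in order. It was 5.11 for Lipg, 4.34 for Pou3f1, 3.54 for Rhov, 3.00 for Pcp4l1, 1.87 for Cdo1, 1.16 for Htr2b, 0.33 for Syngr1 and -2.41 for Rapsn, on the log2 scale. With 1 as the line, 6 genes counted as transient, beside 8.56% of all expressed genes. Syngr1 and Rapsn counted as sustained, that is, under that line and at least 2-fold above mock on at least 3 of the 4 later days, beside 0.56%. The line does not part the genes by peak day: Htr2b counted as transient with its peak on day 3, because days 5 and 7 lowered its later mean to 2.81. Cdo1 and Htr2b were also at least 2-fold above mock on 3 of the 4 later days, as were the 2 genes counted as sustained on 4 (Syngr1) and 3 (Rapsn). Single libraries decide the place of Htr2b and Syngr1. Without day 7 in the later mean the difference was 0.36 for Htr2b and -0.36 for Syngr1, and without day 5 it was 0.77 for Htr2b. Without either day, taken out one at a time, 5 genes counted as transient, with Htr2b under the line. Without day 3 it was 1.82 for Htr2b and 0.54 for Syngr1, and without day 4 it was 0.76 for Syngr1.

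**Figure D3:**
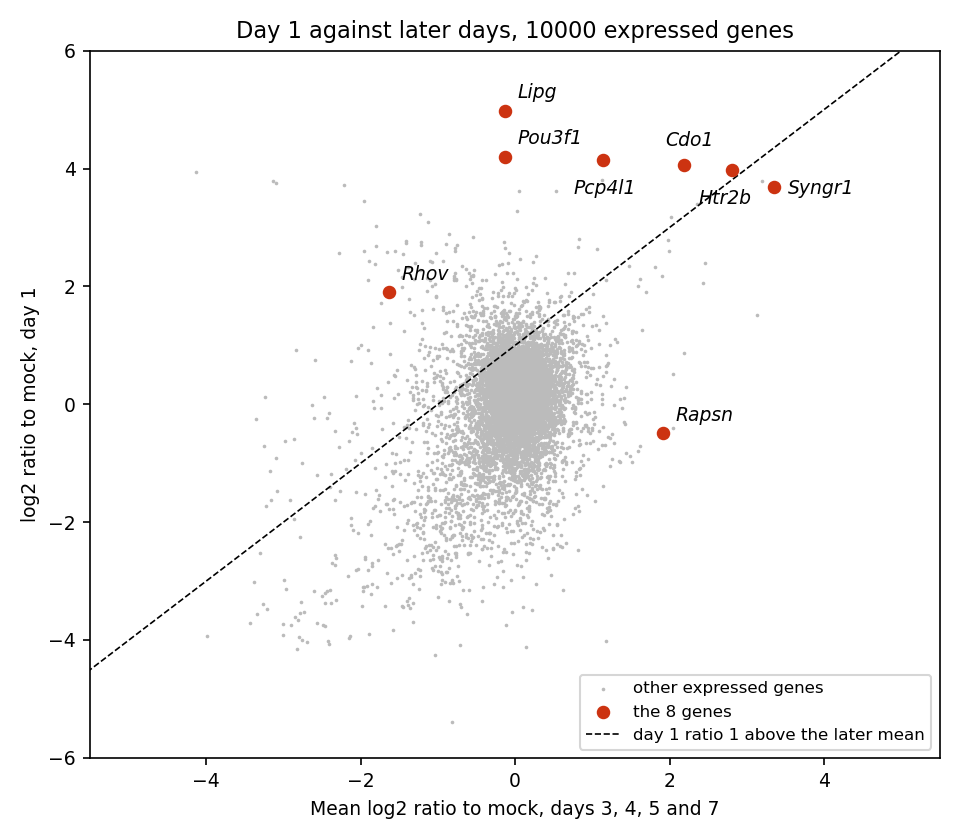
Log2 ratio to mock on day 1 (y axis) against the mean log2 ratio of days 3, 4, 5 and 7 (x axis) for 10000 expressed genes (grey) and the 8 genes (red), with a dashed line where the day 1 ratio is 1 above the later mean. Lipg and Pou3f1 lie at the top near a later mean of 0 (-0.13 for both), Syngr1 at the top right (3.35), Rapsn at the lower right and Rhov to the left (-1.63).

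The courses of the 8 genes over the 6 libraries were compared in pairs. Pearson correlations of log2 values are given as a description over 6 points that share the mock library, depth and cell makeup. Lipg and Pou3f1 had r of 0.94, Cdo1 and Htr2b 0.96, and Pcp4l1 and Cdo1 0.91, and these were the 3 of 28 pairs at 0.9 or above. Rapsn had negative values with Lipg (-0.66), Pou3f1 (-0.61), Rhov (-0.57) and Pcp4l1 (-0.15).

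By the same measure, 1359 expressed genes whose log2 values ranged over at least 2 were searched for courses similar to each gene. The highest r of so many candidates over 6 points is a picked value, so nothing is read from its size. At 0.95 or above were 10 genes for Lipg, 11 for Pou3f1 and 14 for Rhov. There were 3 for Rapsn, 2 for Pcp4l1 and 1 each for Cdo1, Htr2b and Syngr1. The 3 genes with the most similar course are named for each gene. For Lipg they were Fanca (r of 0.99), a DNA repair gene, Por (0.98), which encodes cytochrome P450 oxidoreductase, and Magohb (0.97), and for Pou3f1 they were Kdr (0.99), Magohb (0.98) and the myeloid receptor gene Treml2 (0.98). Kdr was 14.4 times above mock on day 1 (interval 11.7 to 17.9), with log2 ratios of 3.61 on day 1 and 0.97 on day 5. For Pcp4l1 they were Angpt2 (0.96), Usp2 (0.95) and Hmgn3 (0.94), and Angpt2, a ligand of the Tie2 receptor, was at 13.4 in mock, 365 on day 1 and 56.3 on day 3. For Rhov they were Adssl1 (0.99), F7 (0.98), which encodes coagulation factor VII, and the chemokine receptor gene Ccr1 (0.98), at 6399 in mock, 12726 on day 1 and 1888 on day 5.

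The same search was made for the genes high on days 3 and 4. For Cdo1 they were Gpr157 (r of 0.97), Usp2 (0.95), also found for Pcp4l1, and Lhfpl2 (0.94). For Htr2b they were the lysosomal protease gene Ctsd (0.96), the fatty acid binding protein gene Fabp5 (0.94) and Bach2os (0.94). For Syngr1 they were Gpnmb (0.98), a transmembrane glycoprotein of lipid-laden macrophages, Ctsd (0.95) and Gpr157 (0.94). Gpnmb went from 318 in mock to 4614, 4159, 8911, 4817 and 483 on days 1, 3, 4, 5 and 7, so its peak, like that of Syngr1, was on day 4. For Rapsn they were Rcbtb2 (0.98), Gpx3 (0.97), which encodes a secreted glutathione peroxidase, and Rnf150 (0.96), and Gpx3 went from 1274 in mock to 477 on day 1 and 6438 on day 4.

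Lists of macrophage states gave the setting of these courses. Of 15 lipid-associated macrophage genes, 8, 9, 11, 7 and 1 were at least 2-fold above mock on days 1, 3, 4, 5 and 7, with medians of 1.26, 1.34, 1.62, 0.99 and -0.22, and Gpnmb and Fabp5 had the largest ratios, 4.73 and 4.56 on day 4. The shares of all expressed genes above mock on those days were 6.68%, 3.73%, 3.31%, 3.68% and 1.96%. Of 10 monocyte genes, 7 were above on day 1 (median 2.49) and 0 on days 4, 5 and 7, when 8, 7 and 7 were at least 2-fold below. On days 4, 5 and 7, 8.11%, 6.4% and 6.57% of all expressed genes were below. Ly6c2, the surface marker of inflammatory monocytes, was at 37117 on day 1 and 234 on day 3, and Fn1, fibronectin, at -2.05 on day 1 and -4.89 on day 5. The day 1 library, with the highest medians of both the monocyte and the interferon lists, held the peaks of Lipg, Pou3f1, Rhov, Pcp4l1 and Cdo1. The day 4 library, with the highest median of the lipid-associated list, held those of Syngr1 and Rapsn, and Htr2b peaked on day 3. Whether the genes belong to cells of those states was not tested.

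Syngr2, the other synaptogyrin present, lay between 5176 and 5878 in all 6 libraries, with a fold of 1.14 over mock on day 4 (interval 1.09 to 1.18), where Syngr1 was at 27.5. Of 10 other expressed vesicle membrane genes, Syngr2 among them, 0 passed 2-fold in either direction on any day. By day, 1.96% to 6.68% of all expressed genes were above mock and 5.71% to 9.58% below, so nothing is read from that count. The largest ratios were those of Syt11 (-0.97 on day 1), Vamp3 (-0.83 on day 7), Vamp8 (-0.76 on day 7) and Vamp2 (-0.76 on day 3). Scamp2 had the highest mean. Syngr3 and Syngr4 stayed at 2.86 or lower.

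Htr2b was the one serotonin receptor among the expressed genes, through its values on days 1, 3 and 4, for which it was chosen. In mock it was at 4.77 against 22.9 for Htr7, and on day 7 at 11.8 against 46.5. The 10 others in the table had at most 55.6 normalised units in any library, for Htr7 on day 4, and Htr2a had at most 12.7. Of 6 other expressed genes of serotonin transport, breakdown and signalling, 0 were at least 2-fold above mock on any day. The share of all expressed genes was 1.96% to 6.68% by day, so nothing is read from a count of 0 in 6. Maoa, which breaks down serotonin, was at -1.44 on day 1, Maob at 0.87, the vesicular transporter gene Slc18a1 at -0.04, and Tgm2, a transglutaminase that can attach serotonin to proteins, at 0.82 on day 1 and -1.63 on day 7. Tph1, the enzyme gene of serotonin synthesis outside the nervous system, had 9.55 in mock and 0 on day 1.

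Rhou, the closest relative of Rhov, was also high on day 1. Its normalised read count was 199 in mock, then 1393, 190.2, 58.2, 110.2 and 118 on days 1, 3, 4, 5 and 7, a fold of 7.01 on day 1 (interval 6.04 to 8.17).

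**Figure D4:**
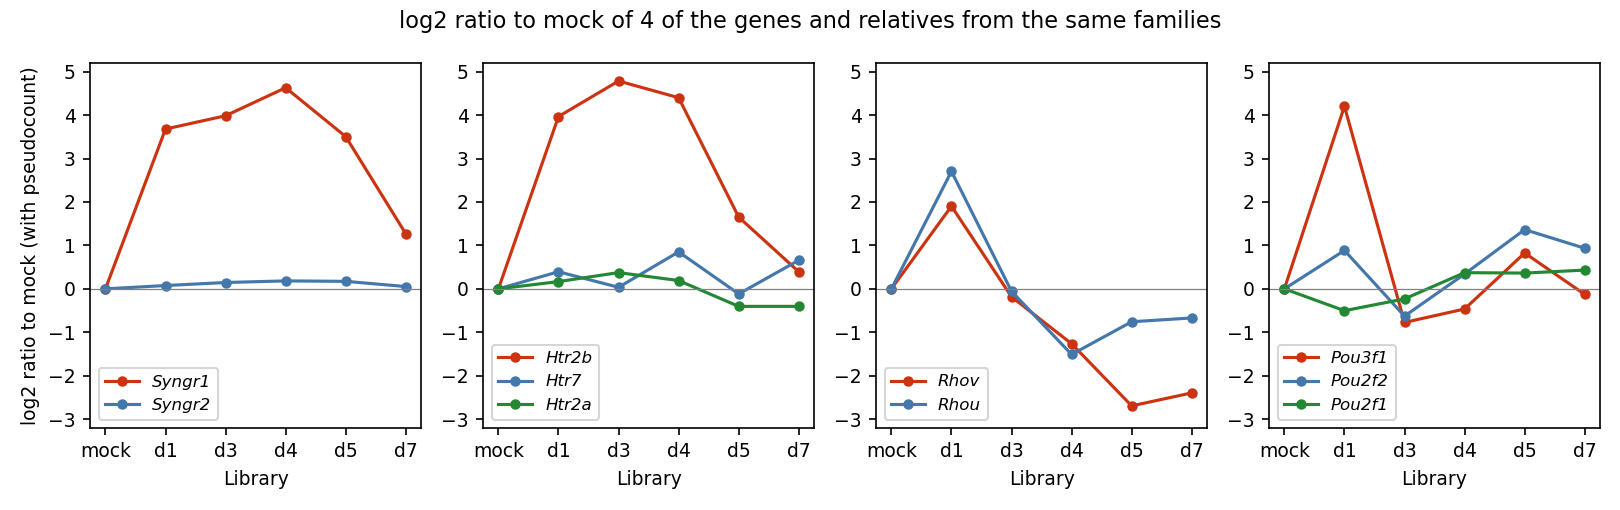
Log2 ratio to mock with pseudocount (y axis) in each library (x axis, mock at 0) for Syngr1, Htr2b, Rhov and Pou3f1 (red) and relatives of the same family (blue and green). Syngr2 stays near 0 while Syngr1 reaches 4.63, Htr7 and Htr2a stay within 1 of mock, and Rhou is above mock with Rhov on day 1, at 2.70 against 1.90.

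Other genes of cysteine and sulfur metabolism were set beside Cdo1. Of 13 expressed ones, 1 was at least 2-fold above mock on day 1, beside 6.68% of all expressed genes, so nothing is read from the count. It was Ethe1, a mitochondrial sulfur dioxygenase (2.28 times, interval 2.15 to 2.40). Below mock were 3, beside 9.58%: Cbs at -2.64, the cystine transporter gene Slc7a11 at -1.46 and Suox, sulfite oxidase, at -1.20. Csad, the next enzyme towards taurine, was at 176 in mock, 81.2 on day 1, 218 on day 3 and 377 on day 4, and it was the 1 gene above on day 4. The share of all expressed genes on day 4 was 3.31%. On days 3, 5 and 7, 0 were above, beside 3.73%, 3.68% and 1.96%. The taurine transporter gene Slc6a6 was 1.66 times mock on day 1 (1.59 to 1.72) and 1.87 times on day 4 (1.80 to 1.94). Slc3a2, with the highest mean, was at 0.83 on day 1.

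Of 12 other expressed genes of lipases and lipid handling, 1 was at least 2-fold above mock on day 1 and 4 on day 4. The shares of all expressed genes were 6.68% and 3.31%. Pltp was at -2.27 on day 1 and 1.05 on day 5, Cd36 at -1.79 and Abca1 at 1.67 on day 4, and Apoe, with the highest mean, at -0.39 on day 1 and 2.76 on day 4. The POU list also held Egr2, a zinc finger factor of Schwann cells, and the coactivator gene Pou2af1. Of its 4 other expressed genes, 0 were above on days 1, 3, 4 and 7, beside 6.68%, 3.73%, 3.31% and 1.96% of all expressed genes. On day 5, beside 3.68%, 2 were above, Pou2f2 (1.36) and Egr2 (1.33). Pou2af1, known from B cells, was at -3.47 on day 3 and Pou2f1 between -0.50 and 0.43. Pou2af1 moved with the markers of T, NK and B cells, whose sum went from 6830 in mock to 397 on day 3. No other gene of the nicotinic receptor list counted as expressed. The 14 nicotinic receptor subunits had at most 38.9 normalised units, for Chrnb1, and Musk, the kinase of the rapsyn pathway, at most 7.04. Agrn and Lrp4 of that list had more, with at most 98.8 on day 5 and 53.0 on day 4. In mock Agrn was at 59.2 and Rapsn at 48.7.

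Neighbours of the genes on their chromosomes are given beside the shares of all expressed genes, and nothing is read from their small counts. The 4 nearest expressed coding genes that do not overlap the gene, 2 on each side in GENCODE M21 order, gave 32 neighbours. Of these, 2 were at least 2-fold above mock on day 1, beside 6.68% of all expressed genes. Their median was 0.35 and their range -1.13 to 1.23. The overlapping Psmd1 (Htr2b) and Rpl3 (Syngr1) were left out of these, with day 1 ratios of 0.87 and -0.46. The 2 were Fcer1g, beside Pcp4l1 (1.23), and BC031181, near Lipg (1.02). On days 3, 4 and 7 none passed 2-fold, where 3.73%, 3.31% and 1.96% of expressed genes were above mock and 5.71%, 8.11% and 6.57% below. On day 5 Pdgfb, beside Syngr1, was above (1.03), where 3.68% of expressed genes were. Pdgfb was also the 1 neighbour at least 2-fold below mock on day 1 (-1.13), when Syngr1 was at 3.68 and 9.58% of expressed genes were below.

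**Figure D5:**
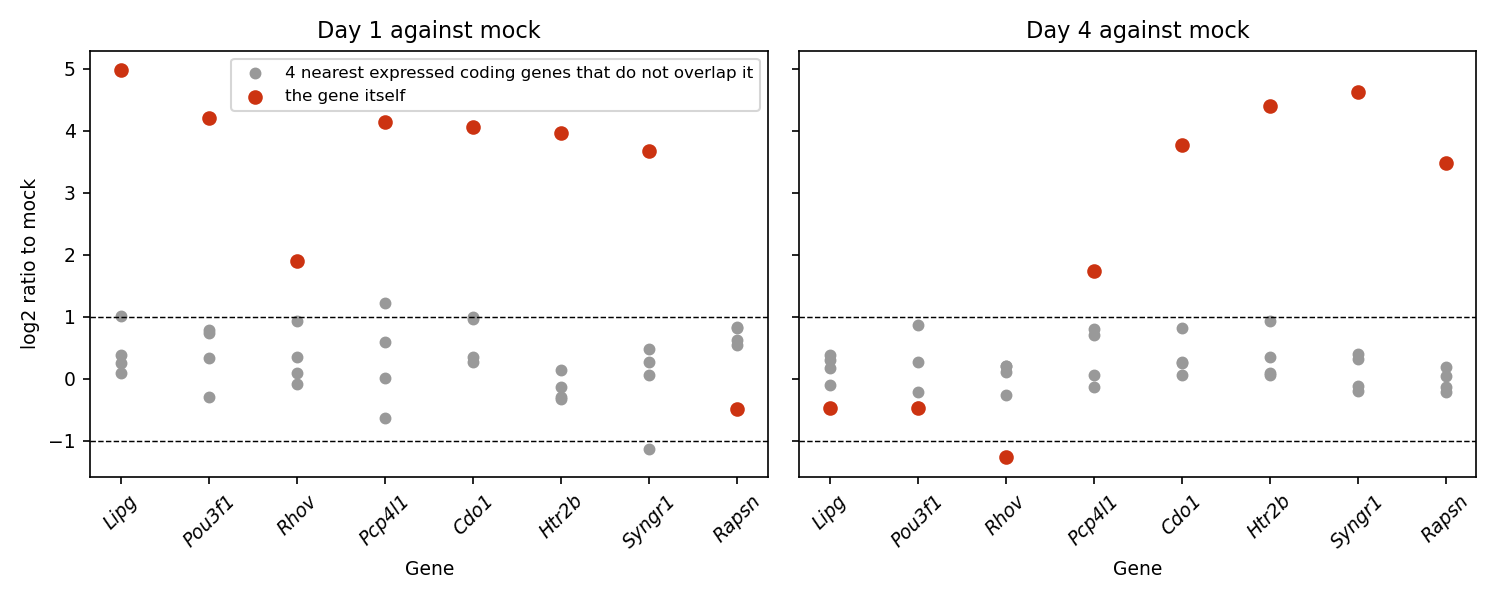
Log2 ratio to mock (y axis) of each gene (red) and its 4 nearest expressed coding genes that do not overlap it (grey) on day 1 and day 4, with dashed lines at 2-fold. On day 1 the grey points lie between -1.13 and 1.23, and the red points of 7 genes lie above them at 1.90 to 4.98. The genes were picked for being high, so this gap follows from the choice.

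Markers of other cells had their highest sums in several libraries. Neutrophil markers summed to 11089 on day 4, mostly Retnlg (9911), and to 496 on day 5. Dendritic cell markers were lowest on day 1 (1074) and highest on day 7 (8147), with Cd209a at 145 and 3814. Acinar markers summed to 479559 in mock and 562229 on day 7, led by Cel, and to 22167 to 74680 between. Pcp4l1, Cdo1, Htr2b and Syngr1 had their lowest values in mock and on day 7. The others did not: Lipg was lowest on day 4, Pou3f1 on day 3, Rhov on day 5 and Rapsn on day 1. Mast cell markers had at most 349.7, duct markers were led by Krt18, fibroblast markers by Col3a1, T, NK and B markers by Cd79a, and erythroid markers by Hbb-bs, with sums of 35.4 on day 5 and 3609 on day 3. No marker in the table was at 0 in every library. Their part in the courses of the 8 genes was not tested.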

How the data were processed

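RNA was sequenced in 6 libraries, mock and days 1, 3, 4, 5 and 7, grouped by sample title. The authors deposited 1 normalised signal value for each gene and library, and every value is a whole multiple of 1 step per library (100% whole within 0.01 reads), so whole reads were recovered and a floor of 3 reads is worth 2.11 to 3.88 normalised units. Per the submitters' processing notes, Bowtie 0.12.2 and the build mm8 were named, without a role. The gene counter, its annotation, its use of strand and its treatment of reads shared by related genes remain not given in the sources used here. Values of paralogs such as Rhov and Rhou or Syngr1 and Syngr2 are therefore uncertain. A gene name table held 31431 of the gene identifiers (99.4%). The identifiers could not be tied to mm8, so no gene coordinates are given. Chromosome names, neighbours and overlaps come from GENCODE M21 (GRCm38), and promoters from RefSeq.

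The genes and lists were chosen with earlier results of these data known. The 10000 genes of highest mean (at least 74.1) counted as expressed. Named genes are the 8 members, for each the 3 with the most similar course, for each of 8 related lists up to 4 with the largest ratio and the 1 with the highest mean, for each of 3 comparison lists the 2 with the largest ratio, and for each of 13 marker lists the 1 with the highest mean; other genes named for contrast were chosen after their values were seen. Results of 2 of the related lists are not reported here. Predicted genes and pseudogenes, and genes with clone-type names, were left out of the similar courses; the last exclusion was added after the data were seen. Intervals cover counting error alone: without molecular identifiers, reads can be copies of 1 molecule, and variation between pools is not included. With 1 library per day no test between days was made. As an addition after seeing the data, DESeq2 1.42.0 and the quasi-likelihood test of edgeR 4.0.16 (R 4.3.3) were run on the recovered reads of 14106 genes with at least 60 reads, the 5 caerulein libraries against mock, treating days as replicates. At an adjusted p of 0.05 edgeR called 0 genes and DESeq2 2, with 102 and 117 genes under an unadjusted p of 0.05. No p is given for the 8 genes, which were chosen on this contrast. The calculations were tested on simulated data. Tools were matplotlib 3.10.9, scipy 1.17.1, pandas 2.3.3 and numpy 2.4.6 under Python 3.11.15.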

Additional observations from a re-analysis of the deposited data

How the results depend on the processing

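With 1 library per day, variation between pools was not measured, and a single mock library enters every ratio. No paired analysis was possible because each group has 1 library. Day 7 as the reference in place of mock was chosen after seeing the data. Over 232 log2 ratios of the 8 genes under other settings, 178 shifted from the main ratio by less than the distance from the middle to the ends of the log2 counting interval. That interval is without pseudocount, so the measure is of the shift alone, not of whether a ratio lies inside the interval. For Lipg on day 4, with 0 reads, the distance has no limit, and a ratio of -2.94 beside -0.46 was still counted. The sign changed in 9. Rhov changed with day 7 as the reference, from -0.18 to 2.21 on day 3 and from -1.26 to 1.13 on day 4. Rapsn on day 1 changed from -0.49 to 0.63 after quantile normalisation. The other 6 shifted by less than that distance, for Lipg on day 3, Pou3f1 on days 4 and 7 and Pcp4l1 on day 7. The pseudocount moved the low genes most: for Htr2b on day 1 the ratio was 5.86 with a pseudocount of 1 and 2.42 with 4 times the pseudocount, beside 3.97. The number of genes at least 2-fold above mock stayed at 7 on day 1 and 5 on days 3 and 4 or within 1.5 times of that, except among the 6000 highest genes, where 2, 1 and 1 remained because the filter keeps fewer of them. On day 5 it was 4, but 6 after quantile normalisation, 5 with a pseudocount of 1, 2 with 4 times the pseudocount, 2 with day 7 as the reference, and 1 with a 4-fold line or among the 6000 highest genes. On day 7 it was 1, but 3 with a pseudocount of 1, 2 with libraries rescaled to equal totals, centred on the median expressed gene or quantile normalised, and 0 with a 4-fold line. The number of transient genes was 5 or 6 under every setting tried. Genes with few reads in mock, Lipg (7), Htr2b (5) and Cdo1 (14), have the widest intervals.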
